A study of Mus musculus with 8 samples.

Results

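The genes described here are 10 genes of amino acid metabolism that are known targets of the transcription factor ATF4. They comprise the proline synthesis enzymes Aldh18a1 and Pycr1, the serine synthesis enzymes Phgdh, Psat1 and Psph, the mitochondrial one-carbon enzymes Shmt2 and Mthfd2, the asparagine synthetase Asns, and Cth and Chac1, which act on cysteine and glutathione. They were listed by symbol after their difference between Prmt5-null and control cells in these same libraries had been seen. That difference is therefore given below as a description, without p-values. Calls of members by the rule used for all genes are part of that description and no independent test. All 10 symbols were found among 39017 genes in the deposited table, and all 10 were among the 16250 genes with a mean of at least 10 normalized counts that entered the comparison.

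The cells were splenic B cells of C57BL6/J mice, activated on 40LB feeder cells that express CD40L and BAFF, with IL-4 at 1 ng/mL, which gives induced germinal center-like B cells (iGBs). The B cells were taken off the feeder by elutriation at day 4. The 4 Prmt5-null samples carried Prmt5F/F and Cγ1-cre, and the 4 control samples carried Cγ1-cre alone, so Cre was present in both groups. Cγ1-cre is driven from the IgG1 constant region locus and acts once B cells are activated, so Prmt5 was present in these cells before plating. Prmt5 encodes the arginine methyltransferase that makes most symmetric dimethylarginine on proteins. Each library came from 1 biological sample, and its label carries a number, taken here as that of the mouse, which names it below. The labels used here give neither the sex nor the age of the mice.

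Serine is made from the glycolytic intermediate 3-phosphoglycerate by PHGDH, PSAT1 and PSPH in turn. SHMT2 then splits serine into glycine and a one-carbon unit in mitochondria, which MTHFD2 passes on towards purine and thymidylate synthesis. Proline is made from glutamate by ALDH18A1 and reductases such as PYCR1, and asparagine from aspartate by ASNS. ATF4, whose translation rises when amino acids run short or the endoplasmic reticulum is stressed, binds C/EBP-ATF composite elements near many of these genes, and proliferating lymphocytes are known to raise serine and one-carbon synthesis on activation.

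The core of the C/EBP-ATF composite element, TGATGNAA on either strand, was searched in the RefSeq promoters of build GRCm38.p6, from 250 bases before to 50 bases after each gene's start. It was present in 3.97% of 32851 promoters and, counted by gene, in 270 of the 9749 genes tested that had a promoter entry. Of the 9 members matched in that table, 3 held it, namely Pycr1, Asns and Chac1. The E-box CACGTG, which is its own reverse complement and is bound by MYC among others, was present in 7.15% of promoters. Counted by gene, it was present in 1132 of the 9749 genes tested and in 1 member, Aldh18a1. Cth had no entry there. The windows around these 4 matches are shown, 5′ to 3′ on the strand of the gene, because they are the stretches in which the members differ in these letters, and capitals mark the match. They are Pycr1 at chr11:120643798-120643897 (minus strand), Chac1 at chr2:119351003-119351102 (plus strand, with the match read on the opposite strand), Asns at chr6:7693214-7693243 (minus strand, within the 5′UTR in the first exon of the GENCODE model) and Aldh18a1 at chr19:40588471-40588568 (minus strand).
Pycr1: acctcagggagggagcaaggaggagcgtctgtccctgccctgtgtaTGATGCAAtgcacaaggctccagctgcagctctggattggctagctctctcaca
Chac1: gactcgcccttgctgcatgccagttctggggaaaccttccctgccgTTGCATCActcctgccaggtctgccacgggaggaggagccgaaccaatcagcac
Asns: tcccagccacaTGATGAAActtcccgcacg
Aldh18a1: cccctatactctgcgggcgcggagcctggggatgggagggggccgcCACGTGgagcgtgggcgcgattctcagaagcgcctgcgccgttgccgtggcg

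The element lay 103 to 96 bases before the start of Pycr1, 193 to 186 bases before that of Chac1 and 23 to 16 bases before that of Asns. The E-box lay 59 to 54 bases before the start of Aldh18a1. These starts are those of RefSeq, and the one of Asns lies inside the gene as GENCODE gives it, so the match in Asns is upstream of the RefSeq start and downstream of the GENCODE start. These matches are letters in a window and not measured binding.

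The libraries held 42752293 to 47174851 reads on genes in Prmt5-null and 36731721 to 50366174 in control samples. Prmt5 itself was 86.9% lower in Prmt5-null libraries, at 1538 ± 436 against 11774 ± 908 normalized counts (SD, n = 4 each). All 8 B cell markers were expressed, of which Cd79a was lower (log2 difference -0.74, limma adjusted p = 0.000327), whereas 5 of 6 T cell markers were under the filter. The 40LB cells are fibroblasts, and the summed fibroblast markers ranged from 7752 to 13480 normalized counts in Prmt5-null and from 5101 to 8870 in control libraries (ratio 1.48, exact permutation p = 0.0571, two-sided), with 10 of 12 markers tested, all 10 of these higher and 3 called higher by limma, 4 by edgeR and 5 by DESeq2. The summed proliferation markers ranged from 147411 to 154565 in Prmt5-null and from 166099 to 183832 in control libraries (ratio 0.864, exact permutation p = 0.0286, the smallest that 4 against 4 allows), with 0 of 8 called by limma, edgeR or DESeq2 and, at an unadjusted limma p under 0.05, 3 lower and 1 higher. By the mean of the log2 values the proliferation difference was -0.11. The summed germinal center markers were 26400 ± 325 in Prmt5-null and 22288 ± 2141 in control libraries (exact permutation p = 0.0286), although by the mean of the log2 values they were 0.24 lower, and S1pr2 and Gcsam were called lower, while DESeq2 also called 1 marker higher. Plasma cell markers (exact permutation p = 0.0857) and myeloid markers (exact permutation p = 0.286) overlapped between the genotypes in their sums. Of 6 plasma cell markers, 3 were lower and 3 higher, with 0 called by limma, edgeR or DESeq2. Prdm1 and Xbp1 were lower below the 1.5-fold limit (limma adjusted p = 0.0428 and 0.0305). Of 4 myeloid markers tested, 1, Emr1, was called higher (log2 difference 0.70, limma adjusted p = 0.0424), and edgeR and DESeq2 also called 1 higher. The summed T cell markers, at 23.4 ± 2.08 in Prmt5-null and 33.3 ± 6.72 in control libraries, had an exact permutation p of 0.0286. The part of feeder RNA and of proliferation in the member values was not tested.

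All 10 members had lower means in Prmt5-null than in control iGBs, by 5.66% for Phgdh to 71.3% for Pycr1. By log2 difference, 8066 of all 16250 genes tested were lower and 8184 higher. Genes that differed by 1.5-fold or more with a limma adjusted p under 0.05 were called, and by that rule 3 members, Pycr1, Chac1 and Asns, were called lower. Among all 16250 genes tested 6.48% were called, 2.99% lower and 3.49% higher. In 4 members, Pycr1, Chac1, Aldh18a1 and Shmt2, the highest Prmt5-null library was lower than the lowest control library, as it was for 10.2% of all genes tested. The median log2 difference, Prmt5-null minus control, was -0.48 over the 10 members and -0.39 without Pycr1 and Chac1, against 0.002 over all genes tested. The members were chosen on this contrast, so nothing is read from these counts. In bulk RNA, a smaller share of cells that express a gene and less of its RNA per cell cannot be told apart.

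**Figure D1:**
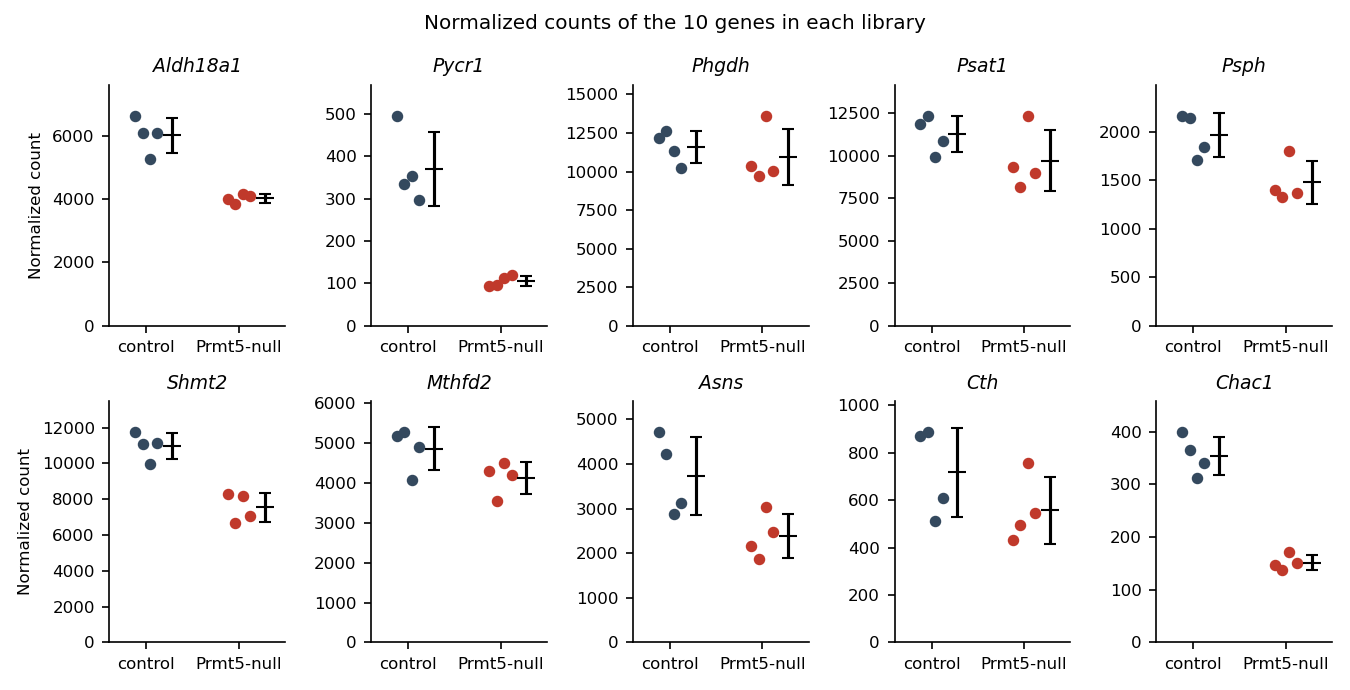
Normalized counts (y axes, each from 0) of the 10 genes in the 4 control (dark) and 4 Prmt5-null (red) libraries, 1 point per library, with the mean ± SD beside each group. The groups are apart for Aldh18a1, Pycr1, Shmt2 and Chac1, and overlap for the other 6 genes.

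In proline synthesis, Aldh18a1 (chr19:40550257-40588463), the bifunctional enzyme that makes the first committed intermediate of proline and ornithine from glutamate, had 4014, 3839, 4149 and 4109 normalized counts in the Prmt5-null libraries PRMT5-10617, PRMT5-10618, PRMT5-10770 and PRMT5-10771, the order kept for every gene. It had 6619, 6071, 5255 and 6073 in control libraries, always given in the order CTRL-10650, CTRL-10370 and then CTRL-10596 with CTRL-10597 last. The Prmt5-null libraries lay within a narrow range (coefficient of variation 3.43%) that did not reach the lowest control library. The log2 difference was -0.57 ± 0.08 (SE, limma), just short of the 1.5-fold limit, and without PRMT5-10770 or without CTRL-10596 it was -0.59 and -0.63 and the gene was called.

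Pycr1 (chr11:120635712-120643769), which encodes the mitochondrial reductase of the last step of proline synthesis, had 94.4, 96.0, 113 and 121 normalized counts in Prmt5-null libraries. Control libraries had 494, 333, 352 and 297. The groups were far apart, and CTRL-10650 stood above the other 3 control libraries. Pycr1 had a log2 difference of -1.77 ± 0.17 (SE), the largest of the members, which was -1.63 without CTRL-10650.

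Pycrl, also called Pycr3, the reductase that uses the ornithine-derived intermediate, had 1088 ± 146 normalized counts in Prmt5-null and 1120 ± 71.5 in control libraries (SD, n = 4 each), a log2 difference of -0.05 (limma adjusted p = 0.797). Per kilobase of exonic length its control level was 836 ± 53.4 normalized counts, above that of Pycr1 at 93.9 ± 22.0. On the breakdown side, Prodh, which starts proline oxidation, and Aldh4a1, which completes it, were called higher in Prmt5-null iGBs. Aldh4a1 had 1903 ± 70.7 against 1078 ± 96.8 normalized counts (log2 difference 0.82, adjusted p = 0.000155), and its call held in every alternative run. Prodh was near the filter, at 39.9 ± 5.17 against 20.4 ± 7.02 (log2 difference 0.98, adjusted p = 0.0412), and its call was lost when any of 7 of the 8 libraries was left out and in 10 of the 18 placements of a block on the experiment. In the whole list of 8 proline and ornithine genes outside the members, 7 were tested, 2 were called higher and 0 lower by limma, edgeR and DESeq2, and 0 were lower at an unadjusted limma p under 0.05. The median log2 difference of the 7 genes was -0.05.

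Pycr1 was the only member with an event in the deposited splicing tables, where 11.4% of 13300 genes with a mean above 50 carry one. The event is a skipped exon of 129 bases at chr11:120643159-120643287 on the minus strand of GRCm38. The exon holds 62 bases of 5′UTR followed by 67 coding bases that open with the start codon, and 4 of 6 annotated transcripts contain it. Its coding part is printed because its loss removes the start codon annotated in this exon, shown in capitals. Of the 6 annotated transcripts, 1 holds no part of this exon and has its own annotated start codon.
Pycr1 exon, coding part, chr11:120643159-120643225: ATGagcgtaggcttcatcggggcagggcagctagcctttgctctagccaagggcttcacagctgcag

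The authors' inclusion levels of this exon, as fractions, were 0.958, 1, 1 and 1 in control and 0.495, 1, 0.595 and 0.329 in Prmt5-null samples, with no library named. In 3 of the 4 Prmt5-null values inclusion was below every control value, and the remaining one was at full inclusion. They rest on 148 inclusion reads and 1 skipping read in all control samples together, and on 17 inclusion reads and 6 skipping reads in all Prmt5-null samples. The skipping seen in Prmt5-null samples therefore rests on 6 reads from 3 samples. Because the tables list only events that the authors found to differ, this description is no independent test.

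In serine synthesis, Phgdh (chr3:98313170-98339990), the entry enzyme of the pathway, had 10377, 9699, 13604 and 10055 normalized counts in Prmt5-null libraries and 12175, 12603, 11358 and 10220 in control libraries. The groups overlapped, and the highest of all 8 libraries was PRMT5-10770. The log2 difference was -0.09 ± 0.11 (SE), smaller than its error. The annotation holds 9 processed pseudogenes at least 95.3% identical to Phgdh over 200 bases or more, and 4 of them are in the table. One of these, Gm7901, was listed at 78.2% to 82.8% of the Phgdh count in each of the 8 libraries. The level of Phgdh is thus uncertain, since reads of the gene and of such a copy cannot be told apart well, but the sum of Phgdh and the 4 copies had a log2 difference of -0.10, close to that of Phgdh.

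Psat1 (chr19:15904678-15947337), the aminotransferase of the second step, had 9373, 8177, 12319 and 9019 normalized counts in Prmt5-null and 11887, 12347, 9951 and 10891 in control libraries. PRMT5-10770 lay among the control libraries, and the other 3 lay below all of them. Prmt5-null minus control, it differed by -0.22 ± 0.12 (SE) on the log2 scale. Psph (chr5:129765558-129787449), the phosphatase that releases serine, had 1405, 1331, 1808 and 1375 normalized counts in Prmt5-null and 2164, 2145, 1715 and 1844 in control libraries. Again PRMT5-10770 alone reached into the control range. Its log2 difference was -0.41 ± 0.11 (SE). Of the exonic bases of Psph, 10.4% are shared with Cct6a on the opposite strand, an abundant gene at 21681 ± 3620 against 20033 ± 1111 normalized counts, and the strand setting of the counting is not given in the sources used here, so the value of Psph is uncertain. The differences of the 3 enzymes spanned 0.32 on the log2 scale. They grew in size from the first to the last step of the pathway. Neighbouring steps differed by less than the sum of their standard errors, but that sum cannot tell whether the steps differ. The errors hold the spread between libraries, and in each library the 3 enzymes deviated from their genotype mean in the same direction. Whether the steps differ within libraries was not tested.

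In mitochondrial one-carbon metabolism, Shmt2 (chr10:127517123-127522444), which turns serine into glycine, had 8275, 6649, 8169 and 7059 normalized counts in Prmt5-null and 11728, 11086, 9962 and 11158 in control libraries. The groups did not overlap. The log2 difference was -0.55 ± 0.09 (SE), under the 1.5-fold limit, and it was -0.59 and the gene was called without any 1 of PRMT5-10617, PRMT5-10770 or CTRL-10596. Ndufa4l2, which shares 1.03% of the exonic bases of Shmt2 on the opposite strand, was under the filter. Mthfd2 (chr6:83305691-83325908), the methylenetetrahydrofolate dehydrogenase that follows, had 4285, 3543, 4483 and 4185 normalized counts in Prmt5-null and 5171, 5259, 4079 and 4908 in control libraries. CTRL-10596 lay within the Prmt5-null range, and the other 3 control libraries lay above it. Its log2 difference of -0.23 ± 0.10 (SE) was among the smaller ones.

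The enzymes beside them were mixed. Shmt1, the cytosolic counterpart of Shmt2, had 4732 ± 542 against 5966 ± 422 normalized counts (log2 difference -0.34, limma adjusted p = 0.0302), below the 1.5-fold limit for a call. Shmt2 made up 69.7% ± 0.72 of the summed Shmt1 and Shmt2 level per exonic length in control and 66.6% ± 0.68 in Prmt5-null libraries. Mthfd1, the cytosolic trifunctional enzyme, had a log2 difference of 0.005 (adjusted p = 0.978), and Mthfd1l, which releases formate from mitochondria, one of -0.41 (adjusted p = 0.105) with overlapping groups. Mthfd2l, the relative of Mthfd2, had 138 ± 25.4 against 93.3 ± 11.6 normalized counts (log2 difference 0.55, adjusted p = 0.0541), so Mthfd2 made up 98.3% ± 0.24 of the pair in Prmt5-null and 99.0% ± 0.12 in control libraries. The serine, glycine and one-carbon list holds 16 genes outside the members, Shmt1, Mthfd1, Mthfd1l and Mthfd2l among them. Of the 16 genes, 13 were tested, and the one called was Gcat, which breaks threonine down to glycine. Gcat had 2084 ± 256 against 3164 ± 254 normalized counts (log2 difference -0.61, adjusted p = 0.00206), a call lost without PRMT5-10618, PRMT5-10771 or CTRL-10650. The median log2 difference of the 13 genes was 0.005.

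Asns (chr6:7675169-7693254), which makes asparagine from aspartate and glutamine, had 2162, 1864, 3033 and 2482 normalized counts in Prmt5-null libraries. Control libraries had 4707, 4224, 2869 and 3115. PRMT5-10770 lay above CTRL-10596, so the groups overlapped by 1 library on each side. Asns had a log2 difference of -0.64 ± 0.17 (SE). Its call was lost when any of 5 libraries was left out, with -0.60 without PRMT5-10617, -0.53 without PRMT5-10618, -0.66 without PRMT5-10771, -0.57 without CTRL-10370 and -0.52 without CTRL-10650.

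Among 14 genes of aspartate, asparagine and glutamine metabolism, 13 were tested, 2 were called lower and 0 higher by limma, edgeR and DESeq2, with a median log2 difference of -0.14. At an unadjusted limma p under 0.05, 6 were lower and 1 higher, the latter being Ass1, which makes argininosuccinate (log2 difference 0.54, adjusted p = 0.00421). Asl, the argininosuccinate lyase, was among the 6 lower genes (log2 difference -0.58, limma adjusted p = 0.000677) and fell just short of the 1.5-fold limit. The 2 called are transaminases that exchange amino groups with glutamate. Gpt2, the mitochondrial alanine transaminase, had 262, 286, 368 and 328 normalized counts in Prmt5-null and 1119, 917, 695 and 776 in control libraries (log2 difference -1.48 ± 0.16 SE, adjusted p = 0.000166). Bcat1, the cytosolic branched-chain transaminase, had 1117, 868, 1352 and 1071 against 3033, 2683, 2211 and 2589 (log2 difference -1.26 ± 0.13 SE, adjusted p = 0.000164). For both, the Prmt5-null libraries were all lower than the control libraries, and both calls held in every alternative run.

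Chac1 (chr2:119351229-119354381), a γ-glutamylcyclotransferase that degrades glutathione and is induced by ATF4 under stress, had 146, 137, 172 and 151 normalized counts in Prmt5-null libraries. Control libraries had 399, 365, 313 and 341. Even the highest Prmt5-null library was well below the lowest control library. Chac1 had a log2 difference of -1.22 ± 0.13 (SE), from -1.28 to -1.16 with 1 library left out. Cth (chr3:157894248-157925077), which makes cysteine from cystathionine, had 431, 494, 757 and 546 normalized counts in Prmt5-null and 869, 885, 511 and 609 in control libraries. Its groups overlapped widely, it was the most variable member in both genotypes (coefficients of variation 25.4% and 26.1%), and its log2 difference was -0.36 ± 0.20 (SE).

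Chac2, the relative of Chac1 known for a steadier expression, had 265 ± 67.1 against 193 ± 19.7 normalized counts (log2 difference 0.43, limma adjusted p = 0.115), with all Prmt5-null libraries above all control libraries. Per exonic length Chac1 made up 59.6% ± 4.5 of the pair in control and 31.9% ± 3.0 in Prmt5-null libraries (SD, n = 4 each), so Chac1 was the more abundant of the pair in each control library and the less abundant in each Prmt5-null library. Cbs, which makes the cystathionine that CTH cleaves, had 76.9 ± 29.7 against 96.0 ± 18.7 normalized counts (log2 difference -0.37, adjusted p = 0.376). The cysteine and glutathione list holds 12 genes outside the members, Chac2 and Cbs among them. Of the 12 genes, 11 were tested, and the one called was Oplah, which opens the 5-oxoproline that γ-glutamylcyclotransferases release. Oplah had 89.4 ± 12.4 against 38.9 ± 9.86 normalized counts (log2 difference 1.20, adjusted p = 0.00558). Its groups did not overlap, and its call held in every alternative run. The median log2 difference of the 11 genes was -0.01.

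**Figure D2:**
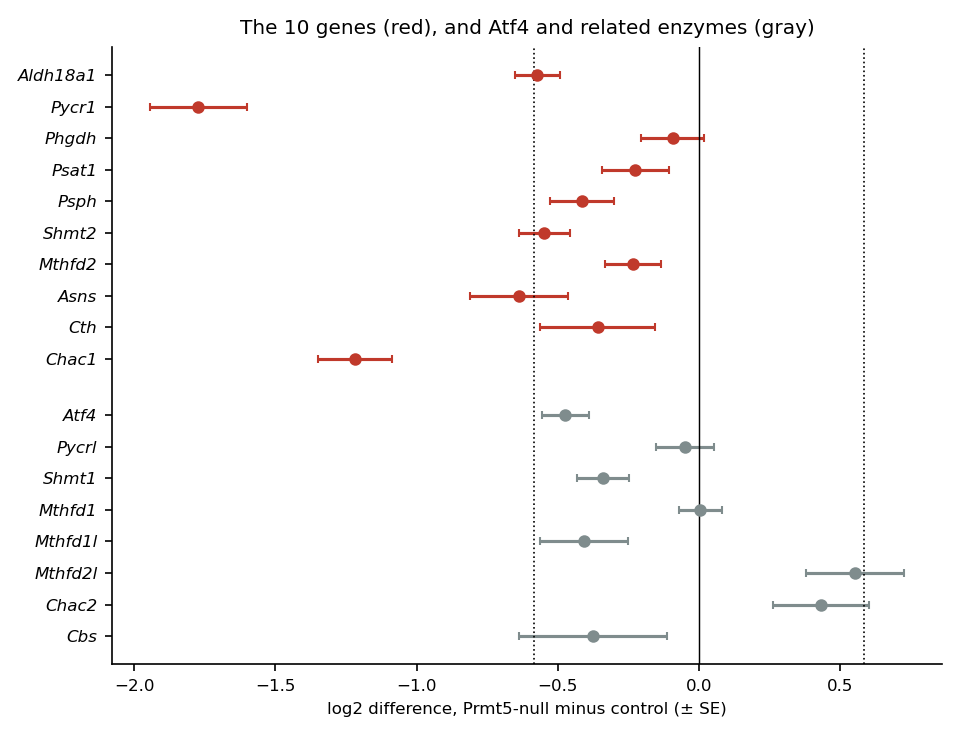
Difference of Prmt5-null minus control on the log2(normalized count + 1) scale (x axis, ± SE from limma) for the 10 genes (red) and for Atf4 and 7 related enzymes (gray), with dotted lines at a 1.5-fold change. Pycr1 at -1.77 and Chac1 at -1.22 lie far left of the other genes, while Mthfd2l and Chac2 lie to the right of 0.

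The members also varied together between libraries of the same genotype, a comparison that does not use the difference between genotypes. In PRMT5-10770, 10 of 10 members lay above the mean of their genotype and 8 were the highest of the 4, with a median deviation of 0.24 on the log2 scale, while 33.3% of all genes tested were highest in that library. In PRMT5-10618, 8 members were the lowest of the 4, against 29.1% of all genes. CTRL-10650 had 10 members above the mean of its genotype and 6 at the highest value, and CTRL-10596 had 0 above it and 8 at the lowest. Of all genes, 24.6% were highest in CTRL-10650 and 22.0% lowest in CTRL-10596, while 51.9% and 50.9% lay above the mean there. The members share each library, so they are not independent of one another here.

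**Figure D3:**
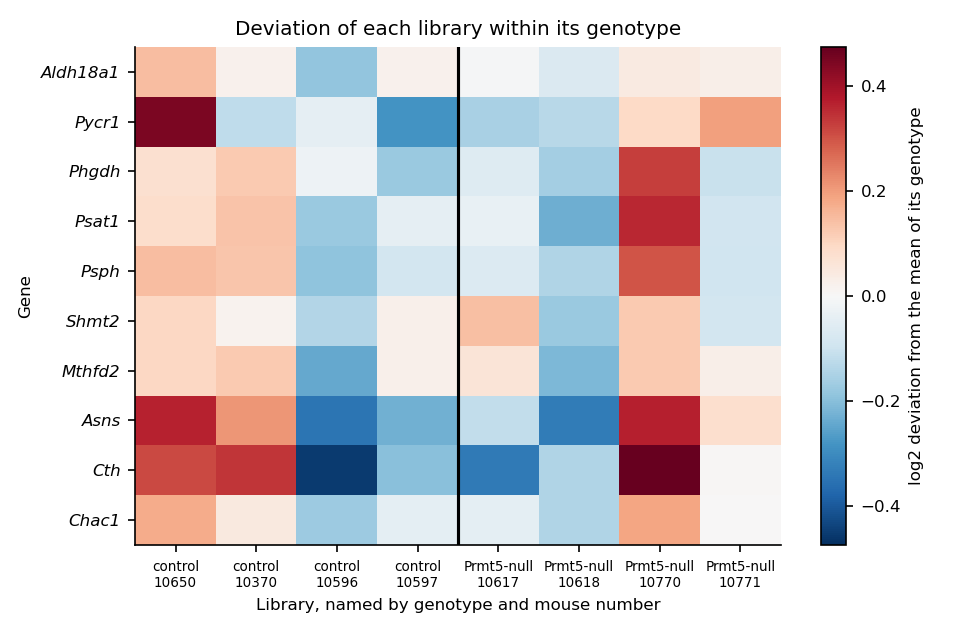
Deviation of each library (columns, named by genotype and mouse number) from the mean of its own genotype, on the log2(normalized count + 1) scale (color), for the 10 genes (rows). The PRMT5-10770 and CTRL-10650 columns are above 0 for all 10 genes, and the PRMT5-10618 and CTRL-10596 columns are below 0 for all 10.

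The libraries fell on either side of the second principal component, which held 25.8% of the variance of 16129 genes with the members, the related lists and the marker genes left out, with 2 libraries of each genotype on each side. PRMT5-10617 and PRMT5-10618 and CTRL-10596 and CTRL-10597 lay on one side, and the other 4 libraries on the other. The sides were cut at a score of 0, and PRMT5-10771 at -2.8 and CTRL-10596 at 5.07 lay near that cut. The scores at the ends were 37.6 for PRMT5-10618 and -28.2 for PRMT5-10770. Within the first side the median log2 difference of the members was -0.44, and within the second -0.52, with all 10 members lower on both. On each side 8 members were lower without overlap, with 2 libraries against 2, as were 24.2% and 23.5% of all genes tested, and 7 were so within both sides, against 14.3%. Phgdh and Mthfd2 overlapped on the first side, and Phgdh and Psat1 on the second. Asns, Cth and Psph, which overlapped over all 8 libraries, were among these 7, with Asns at -0.57 and -0.70 and Cth at -0.27 and -0.45. The median deviations of the members within their genotype were -0.18 to -0.05 in the 4 libraries of the first side and 0.003 to 0.24 in those of the second. The signs of these medians thus followed the sides in both genotypes. Their order followed the score in the Prmt5-null but not in the control libraries, where CTRL-10596 had -0.18 at a score of 5.07 and CTRL-10597 had -0.07 at 26.3. The members were chosen on this contrast, and the sides were taken from the data after they were seen. Each side holds 2 libraries of each genotype, as did each of the study's 2 experiments, but no label of a library names its experiment, so whether the sides are the experiments was not tested.

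Compared per length, as normalized counts per kilobase of exonic length, the members spanned a wide range in control libraries. Phgdh, uncertain because of its copies, was the highest at 4662 ± 422, followed by Shmt2 at 3533 ± 238 and Psat1 at 2649 ± 251 (SD, n = 4 each), and the lowest control library of each lay above the highest of the next. Aldh18a1 at 1475 ± 138, Mthfd2 at 1392 ± 154 and Asns at 1363 ± 321 overlapped, and their order changed when the length of the longest transcript was used. Psph followed at 454 ± 51.5, then Cth at 257 ± 67.3 and Chac1 at 216 ± 22.2, which overlapped, and Pycr1 was the lowest at 93.9 ± 22.0. The members with the largest log2 differences, Pycr1 and Chac1, were therefore the least abundant, and the largest difference in level was that of Shmt2, which was 1108 normalized counts per kilobase lower in Prmt5-null iGBs, against 67.0 for Pycr1.

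**Figure D4:**
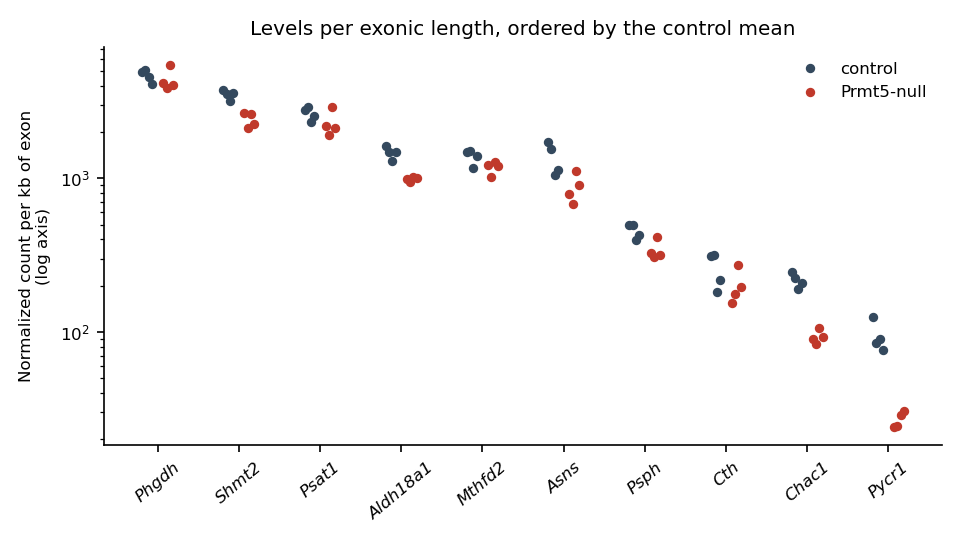
Normalized count per kilobase of exonic length (y axis, log scale) of the 10 genes, ordered by the control mean, with 1 point per control (dark) and Prmt5-null (red) library. Control levels run from 4662 for Phgdh to 93.9 for Pycr1.

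Atf4, which encodes the factor that the 10 genes are known to respond to, had 10297, 11530, 10928 and 10209 normalized counts in Prmt5-null and 13339, 16920, 14649 and 14886 in control libraries. The groups did not overlap. The log2 difference was -0.47 ± 0.08 (SE, limma adjusted p = 0.00368), below the 1.5-fold limit for a call, and the exact permutation p was 0.0286. ATF4 is regulated largely at translation, which RNA-seq does not measure. Of the 24 genes in the list of ATF4 and the stress response, 23 were tested, 17 had lower and 6 higher means, and 1 was called in each direction, with a median log2 difference of -0.18. Among all 16250 genes tested, 8066 were lower and 8184 higher. Stc2, which encodes stanniocalcin-2, was called lower at 14.4 ± 10.4 against 48.9 ± 29.9 normalized counts (log2 difference -1.80, adjusted p = 0.0423), with overlapping groups and a call lost without any 1 of 6 libraries and in 7 of the 18 placements of the block. Sesn2, which encodes the leucine-binding sestrin that restrains mTORC1 and is also a p53 target, was called higher at 6352 ± 688 against 4022 ± 348 (log2 difference 0.66, adjusted p = 0.00101), in every alternative run. Ddit3, which encodes CHOP, was at -0.54 (adjusted p = 0.00548) and passed the test below the 1.5-fold limit, whereas Trib3, at -0.63 (adjusted p = 0.179), and Myc, at -0.18 (adjusted p = 0.38), did not pass it.

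Over the 5 related lists together, 67 of 74 genes were tested, 4 were called lower and 4 higher, and the median log2 difference was -0.05. The shares called were 5.97% lower and 5.97% higher, beside 2.99% and 3.49% of all genes tested. The lists, like the members, were drawn up with earlier results of these data known.

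**Figure D5:**
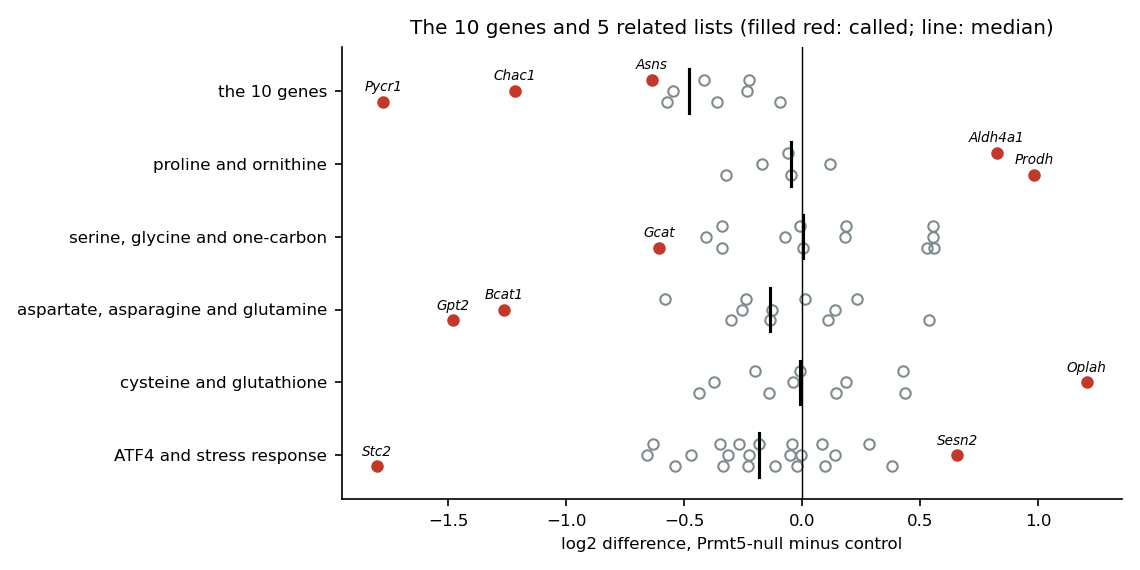
Difference of Prmt5-null minus control on the log2(normalized count + 1) scale (x axis) for the 10 genes and for the tested genes of 5 related lists, 1 point per gene, filled and named where called, with a line at each median. The 10 genes lie to the left of 0, while the medians of the 5 lists lie between -0.18 and 0.005.

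The composite element shown above for Pycr1, Asns and Chac1 was present in the promoters of the same 3 members that were called lower. Aldh18a1 (log2 difference -0.57) and Shmt2 (-0.55) lacked it, had groups that did not overlap and fell just short of the 1.5-fold limit. Asns had overlapping groups and lost its call without any 1 of 5 libraries. The members were chosen on this contrast and the motifs with earlier results known, so nothing is read from this match. Among the related lists, 7 of the 56 genes with a promoter entry held the element, namely Atf3, Fgf21, Got1, Nupr1, Slc7a11, Trib3 and Vldlr, of which 0 were called by limma, edgeR or DESeq2. Fgf21 was under the filter, and 1 of the other 6 was lower at an unadjusted limma p under 0.05. Across the genes tested that had a promoter entry, 270 with the element had a median log2 difference of 0.03, and 9479 without it had one of 0.00. The E-box gave -0.01 with and 0.002 without.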

How the data were processed

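Total RNA of 4 Prmt5-null and 4 control iGB samples was depleted of rRNA and sequenced in paired ends with a stranded kit. The authors used Trimmomatic 0.32 for trimming, STAR 2.3.0e for alignment to GRCm38 (mm10) and featureCounts 1.4.4 for counting, with uniquely mapping reads assigned to the exons of each Ensembl gene. They deposited a normalized signal, each count divided by the size factor of its library from DESeq2, whose version in the submitters' processing notes is 1.14.1. The strand setting of the counting is not given in the sources used here. All deposited values (100%) were whole multiples of the worth of 1 read within a relative tolerance of 1e-06, which gave the depth. Totals ranged from 36731721 to 50366174 reads per library. The authors ran rMATS on untrimmed reads and deposited inclusion levels, as fractions, with the read counts behind them, in lists that name no library, beside p-values, FDR values and differences of their own comparison, which were not used.

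Because the deposited values are normalized, log2(normalized count + 1) of genes with a mean of at least 10 was compared with limma 3.58.1 (eBayes with a trend) in R 4.3.3, without covariates, with Benjamini-Hochberg adjustment over all 16250 genes. edgeR 4.0.16 and DESeq2 1.42.0 on the recovered reads, at the same thresholds, called 1091 and 1277 genes. The code was tested on simulated data. Marker sums and Atf4 were compared with exact two-sided permutation tests over the libraries. The protocol calls the 4 samples of a genotype independent, so p-values rest on the spread between biological samples. Exonic lengths, positions and exons came from GENCODE M21 on GRCm38, promoters from RefSeq on GRCm38.p6. Sums, shares and figures used Python 3.11.15, pandas 2.3.3, NumPy 2.4.6, SciPy 1.17.1 and matplotlib 3.10.9. The samples came from 2 experiments, but the labels of single libraries name none, so a block on the experiment was fitted in all 18 balanced placements.

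The members and all lists, related genes, markers and motifs included, were chosen with earlier results of these data known. The genes named are the members, Prmt5, Atf4, the paralogs Pycrl, Shmt1, Mthfd1, Mthfd1l, Mthfd2l and Chac2, Cbs, and at most the 5 largest called genes of each related list in each direction. Ass1, Asl, Ddit3, Trib3, Myc, Gm7901, Cct6a, Ndufa4l2, the marker genes and the 7 related genes with the element in their promoter are named beyond that rule, having been picked with their values in view. Alternative settings concerned the pseudocount, quantile normalization, low-value filters, the trend, the tool, the threshold, single libraries and the gene length. One gene that this rule names is not reported here. Other assays of the study were not analysed here.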

Additional observations from a re-analysis of the deposited data

Results flagged for a closer look

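In groups of 4 libraries, a value was singled out where its gap to the nearest other library, as a share of the range of the group, exceeded Dixon's 95% critical value, which chance alone gives in about 1 of 20 groups. Of 70 groups examined, 4 had such a library, and all 4 were PRMT5-10770. It was the highest Prmt5-null library for Psph at 1808, for Mthfd2l at 176 and for Chac2 at 365 normalized counts, and the lowest for Aldh4a1 at 1797 normalized counts. The same library was the highest of its genotype for 8 of the 10 members. Its summed fibroblast markers, 10750 normalized counts, lay within the range of the other Prmt5-null libraries, and Prmt5 was at its lowest there, at 1060 normalized counts. Whether feeder RNA or the Prmt5 level bears on the flagged values was not tested.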

How the results depend on the processing

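The log2 differences of all 10 members stayed below 0 in every alternative setting, from -1.87 to -1.63 for Pycr1, -1.28 to -1.16 for Chac1 and -0.20 to -0.04 for Phgdh. The members were chosen with this contrast in view, so nothing is read from that direction. Pycr1 and Chac1 were called in every setting. Asns was also not called without the trend and at an adjusted p below 0.01. With 1 library left out, the number of members called ranged from 2 to 5, with 5 without PRMT5-10770 and 5 without CTRL-10596, which added Aldh18a1 and Shmt2, and the cause was not tested. The number of related genes called ranged from 5 to 9, with 5 without CTRL-10650, the calls of all genes from 792 to 1170, and the log2 difference of Atf4 from -0.53 to -0.41 with limma adjusted p from 0.00394 to 0.0177. Over all settings the adjusted p of Atf4 ran from 8.93e-06 to 0.0177. At an adjusted p below 0.01, 637 genes were called, since the threshold is stricter. With the block on the experiment, 917 to 1243 genes were called over the 18 placements, and with the block on the second principal component, chosen after the data were seen, 1209. The 3 members called were the same under each of these blocks. No paired analysis was possible because no mouse number is shared between the genotypes. The block ended the calls of Prodh in 10 and of Stc2 in 7 placements and of none of the other 6 related genes called. The depth of the Pycr1 splicing event, with 6 skipping reads, limits what can be said of it.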
